A study of Mus musculus with 8 samples.

Results

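The cytosolic ribosomal protein genes encode the proteins that, together with ribosomal RNA, make up the small and the large subunit of the ribosomes in the cytoplasm. They were followed here as 75 gene rows, 30 of the small subunit and 45 of the large, of 38991 gene identifiers in each library. A row was a member if its symbol had the form Rps, Rpl or Rplp with a number, an a or x allowed after it, or was Rpsa, and if its mean reached 1 FPKM (fragments per kilobase of transcript, scaled to sequencing depth, so a level per length) in either genotype. RNA was sequenced from 8 libraries of mouse embryonic stem cells, 4 of the control iPHet and 4 of the Prmt5 knockout iPKO. The cells were C57BL/6, derived from blastocysts of embryonic day 3.5 on fibroblast feeders with LIF and 0.5 µM of the MEK inhibitor PD0325901, and then moved to 2i medium, in which inhibitors hold them in the naive ground state. Both genotypes received 2 µM 4-hydroxytamoxifen for 48 hours and then fresh medium, so the controls carry the drug treatment too. The labels name 1 male line per genotype for most experiments, PC1 for iPHet and PC4 for iPKO, so that genotype and line cannot be told apart. The name iPHet reads as heterozygous, and the labels do not state whether the control kept both copies of Prmt5. The libraries are numbered 1 to 4 within each genotype. The labels do not say what these numbers stand for or whether the libraries came from separate cultures, so the p-values below refer to variation among these 8 libraries and may reflect technical spread alone.

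Ribosomal protein genes are transcribed at high levels in growing cells. Their messages are short, and most begin with a run of pyrimidines at the 5′ end, the TOP motif, through which their translation follows nutrient and mTOR signalling. The proteins assemble in fixed proportions, surplus protein is degraded, and some free proteins bind MDM2 and so connect ribosome assembly to p53. PRMT5 is the main enzyme for symmetric dimethylation of arginine. RPS10 is among its known substrates, whereas RPS2 is methylated by another enzyme of the family, PRMT3.

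Prmt5 itself, the targeted gene, stood at 62.5 ± 10.4 FPKM (SD, n = 4) in the control libraries and at 13.4 ± 1.56 FPKM (SD, n = 4) in the knockout ones. All 10 markers of naive embryonic stem cells were at 1 FPKM or more in every library. Their sums ranged from 1683 to 2028 FPKM in iPHet and from 1627 to 1772 FPKM in iPKO. Sox2 alone of them was called between genotypes in the test given below (limma adjusted p = 0.00539). Its means were 91.8 FPKM in iPHet and 70.1 FPKM in iPKO. Of 10 fibroblast markers, 2 reached 1 FPKM in every iPHet library and 1 in every iPKO library. Their sums, from 222 to 252 FPKM in iPHet and from 148 to 247 FPKM in iPKO, came almost wholly from Fn1, which stem cells also express. Lum and Postn were listed at 0 in every library, and Col1a2 and Col3a1 stayed under 0.0142 FPKM. The files hold no read counts. Relative depth was 0.784 to 1.19 times that of iPHet 1. It was read from the most common ratio of iPHet 1 to each library among very low values.

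The row named Rpl24 did not hold the ribosomal protein gene. Its identifier, ENSMUSG00000022601 on chromosome 16, belongs to Zbtb11, a zinc-finger gene, in GENCODE vM21, and its means were 7.51 FPKM (iPHet) and 7.83 FPKM (iPKO). A separate row spelled RPL24 (ENSMUSG00000098274) had 239, 161, 246 and 163 FPKM in iPHet 1 to 4 and 154, 198, 161 and 199 FPKM in iPKO 1 to 4. By identifier, 74 of the 75 rows are ribosomal protein genes. The row is kept in every count because the rule takes it.

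Sequence around the start site is shown for 8 members, since the TOP motif is the feature these genes are known to share. RefSeq promoters (GRCm38.p6) were matched by symbol for 54 of the 74 ribosomal protein rows. Shown are the 3 matched genes whose genotype difference shifted most between library numbers, the 4 that shifted least, and Rps10, among genes with a single listed start. Each line gives 30 bases before the start and 20 from it, on the gene's strand, 5′ to 3′. Capitals mark the longest run of C and T counted only within 10 bases either side of the start. A run that crosses that edge is cut there, as in Rpl7a, Rpl37 and Rps16.
Rps28, chr17:33824543-33824592, minus strand: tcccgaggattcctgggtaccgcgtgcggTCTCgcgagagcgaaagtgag
Rps16, chr7:28350659-28350708, plus strand: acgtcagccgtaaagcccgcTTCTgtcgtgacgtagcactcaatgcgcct
Rpl37, chr15:5116583-5116632, plus strand: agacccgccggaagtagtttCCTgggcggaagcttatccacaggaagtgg
Rps10, chr17:27635225-27635274, minus strand: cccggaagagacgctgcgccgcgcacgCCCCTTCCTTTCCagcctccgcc
Rpl36a, chrX:134585624-134585673, plus strand: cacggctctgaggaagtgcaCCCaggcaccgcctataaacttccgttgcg
Rpl7a, chr2:26910777-26910826, plus strand: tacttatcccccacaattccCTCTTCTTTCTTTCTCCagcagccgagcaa
Rpl5, chr5:107900498-107900547, plus strand: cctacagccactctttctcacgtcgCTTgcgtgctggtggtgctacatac
Rps2, chr17:24720033-24720082, plus strand: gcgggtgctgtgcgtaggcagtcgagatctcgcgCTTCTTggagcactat
A run of at least 8 C or T on the gene's strand lay in this window of 21 bases in 21 of the 54 matched members, 38.9%, against 9.25% of all 27025 genes in the table. By subunit the share was 8 of 22 small-subunit and 13 of 32 large-subunit genes. Counted inside the window, Rpl7a had a run of 17 bases and Rps10 one of 13, while Rps28 had 4. A match describes these letters at a listed start and does not locate the start used in these cells.

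The 75 rows together took 8.31% to 10.9% of the summed FPKM of a library. In iPHet 1 to 4 the share was 10.3%, 8.31%, 10.6% and 8.56%, and in iPKO 1 to 4 it was 8.45%, 10.5%, 8.72% and 10.9%. The odd-numbered libraries were thus the high ones in iPHet and the low ones in iPKO, and the genotypes overlapped. Means were 9.43 ± 1.17% (SD, n = 4) in iPHet and 9.63 ± 1.23% (SD, n = 4) in iPKO. Large-subunit genes summed to 1.18, 1.26, 1.21 and 1.30 times the small-subunit genes in iPHet 1 to 4. In iPKO 1 to 4 this ratio was 1.23, 1.25, 1.26 and 1.29.

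**Figure D1:**
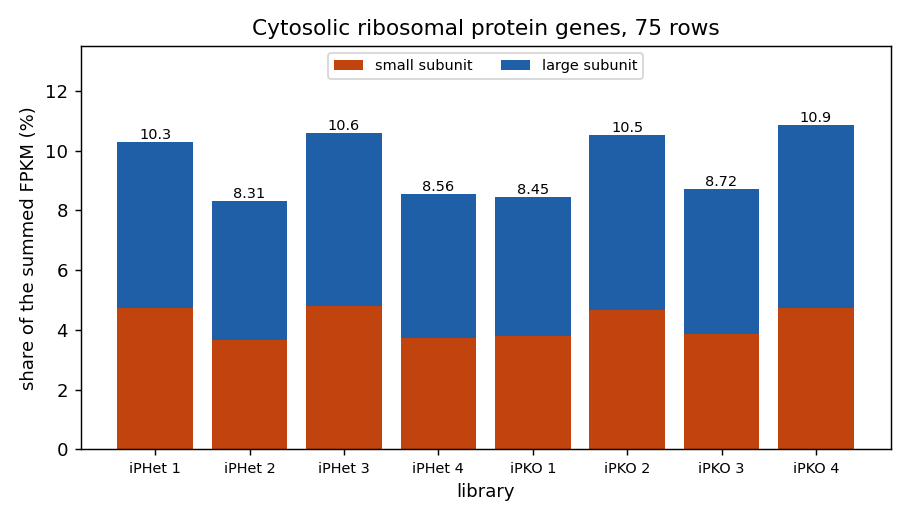
Share of each library's summed FPKM taken by the 30 small-subunit (orange) and 45 large-subunit (blue) rows, 1 bar per library, in percent, with the total above each bar. Libraries 1 and 3 are high in iPHet and low in iPKO, and libraries 2 and 4 the reverse.

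Member levels ranged from 66.3 FPKM for Rpl29 to 2925 FPKM for Rps2 as means over the 8 libraries, a 44.1-fold range without the row named Rpl24. The quartiles of the 74 genes were 283 and 649 FPKM. Median levels were 494 FPKM in the small and 408 FPKM in the large subunit. Rps2, at the mRNA entry of the small subunit, was highest in every library, at 2789, 3098, 2871 and 3258 FPKM in iPHet 1 to 4 and 2748, 2861, 2816 and 2956 FPKM in iPKO 1 to 4. Rpl5, which carries 5S ribosomal RNA into the large subunit, had means of 1615 FPKM in iPHet and 1694 FPKM in iPKO. Rplp1, an acidic protein of the stalk that recruits translation factors, had 1255 and 1236 FPKM. Rps29, a zinc-binding protein of the small subunit's head, had 1393 and 1052 FPKM, and Rpl4, which lines the peptide exit tunnel, had 1185 and 1152 FPKM. Rps27a, made as a fusion with ubiquitin, had 1176 and 1139 FPKM. Below Rps2, the ranges over libraries overlapped from each of these genes to the next. At the low end, Rps27 had 137 and 154 FPKM, and the large subunit's Rpl29 had 73.5 and 59.1 FPKM.

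**Figure D2:**
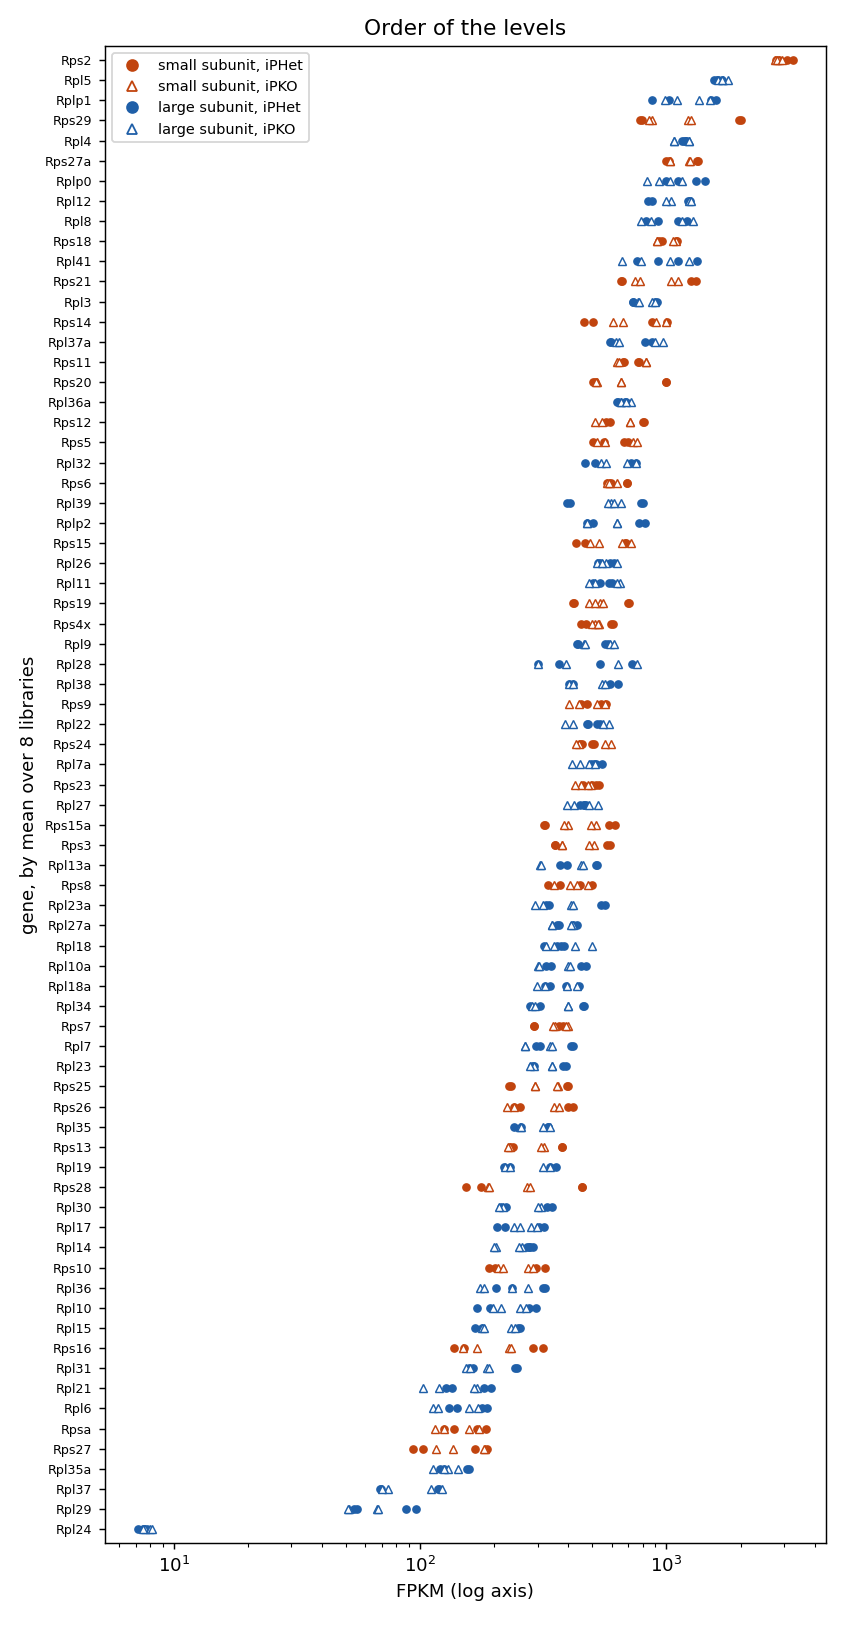
FPKM of 74 of the 75 members in each library on a log axis, ordered by the mean over 8 libraries (filled circles iPHet, open triangles iPKO; orange small, blue large subunit). Rps2 stands apart at the top, most genes overlap their neighbours, and the row named Rpl24 lies alone at the bottom.

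The study's own comparison, iPKO against iPHet over all 4 libraries of each, called none of the 75 members (limma on log2(FPKM + 1), Benjamini-Hochberg adjusted p under 0.05 over 12462 genes). This comparison called 15.8% of all tested genes, with 6.30% above and 9.53% below the control level in iPKO. The members' median log2 change was -0.04, beside -0.04 over all tested genes, and 1 member had an unadjusted p under 0.05. Medians were -0.05 in the small and -0.04 in the large subunit, and 47 of the 75 changes were below 0. Fitting the replicate number as a block also called 0 members, while it called more than 15.8% of all tested genes (share in the last section).

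Rpl14, a large-subunit protein, had the smallest adjusted p of the members. It stood at 288, 278, 281 and 272 FPKM in iPHet 1 to 4 and at 204, 259, 200 and 253 FPKM in iPKO 1 to 4. Its genotypes did not overlap, the only member of which this held, against 25.1% of all tested genes. The log2 difference was -0.30 (SE 0.10, limma adjusted p = 0.0771). A fit with the odd or even number as a term called it, with the same difference and a limma adjusted p of 0.0247, and called 37.9% of all tested genes. With the midpoint of the deposited bounds in place of FPKM, Rpl14 was called lower and Rpl12 higher.

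The other differences of largest size did not pass the test. In the large subunit the log2 differences were -0.31 (SE 0.20) for Rpl36, -0.29 (SE 0.15) for Rplp0, the base of the stalk, and -0.27 (SE 0.21) for Rpl29. In the small subunit they were -0.29 (SE 0.26) for Rps20, -0.28 (SE 0.36) for Rps29, -0.26 (SE 0.39) for Rps28 and 0.21 (SE 0.29) for Rps14. The limma adjusted p-values of these 7 genes lay between 0.212 and 0.693. Rps10, whose protein is the known PRMT5 substrate, averaged 253 ± 66.6 FPKM (SD, n = 4) over the iPHet libraries, and 246 ± 39.8 FPKM (SD, n = 4) was its iPKO average.

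Within each genotype the libraries fell into pairs by number. Between libraries 1 and 3, and between 2 and 4, of 1 genotype, the median absolute log2 difference over the members was 0.05 to 0.06, and over all tested genes 0.07 to 0.08. Between an odd-numbered and an even-numbered library of 1 genotype it was 0.34 to 0.55 over the members and 0.21 to 0.24 over all tested genes. None of the 75 members was higher in iPKO 1 than in iPKO 2, and 73 were higher in iPHet 1 than in iPHet 2. Across genotypes the odd-numbered libraries of one came close to the even-numbered ones of the other. Over the members iPHet 1 and iPKO 2 differed by a median absolute 0.11, and iPHet 1 and iPKO 1 by 0.47. Over all tested genes these differences were 0.26 and 0.22.

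All odd-numbered libraries lay above all even-numbered ones in iPHet for 69 of the 75 members, against 44.7% of all tested genes. In iPKO all even-numbered libraries lay above all odd-numbered ones for 72 members, against 33.7% of tested genes. Both held for 68 members, against 9.48% of tested genes. In iPHet the odd-numbered mean was between 0.891 and 2.76 times the even-numbered one over the 74 ribosomal protein genes, with a median of 1.39. In iPKO the even-numbered mean was between 1.04 and 1.62 times the odd-numbered one, with a median of 1.31.

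**Figure D3:**
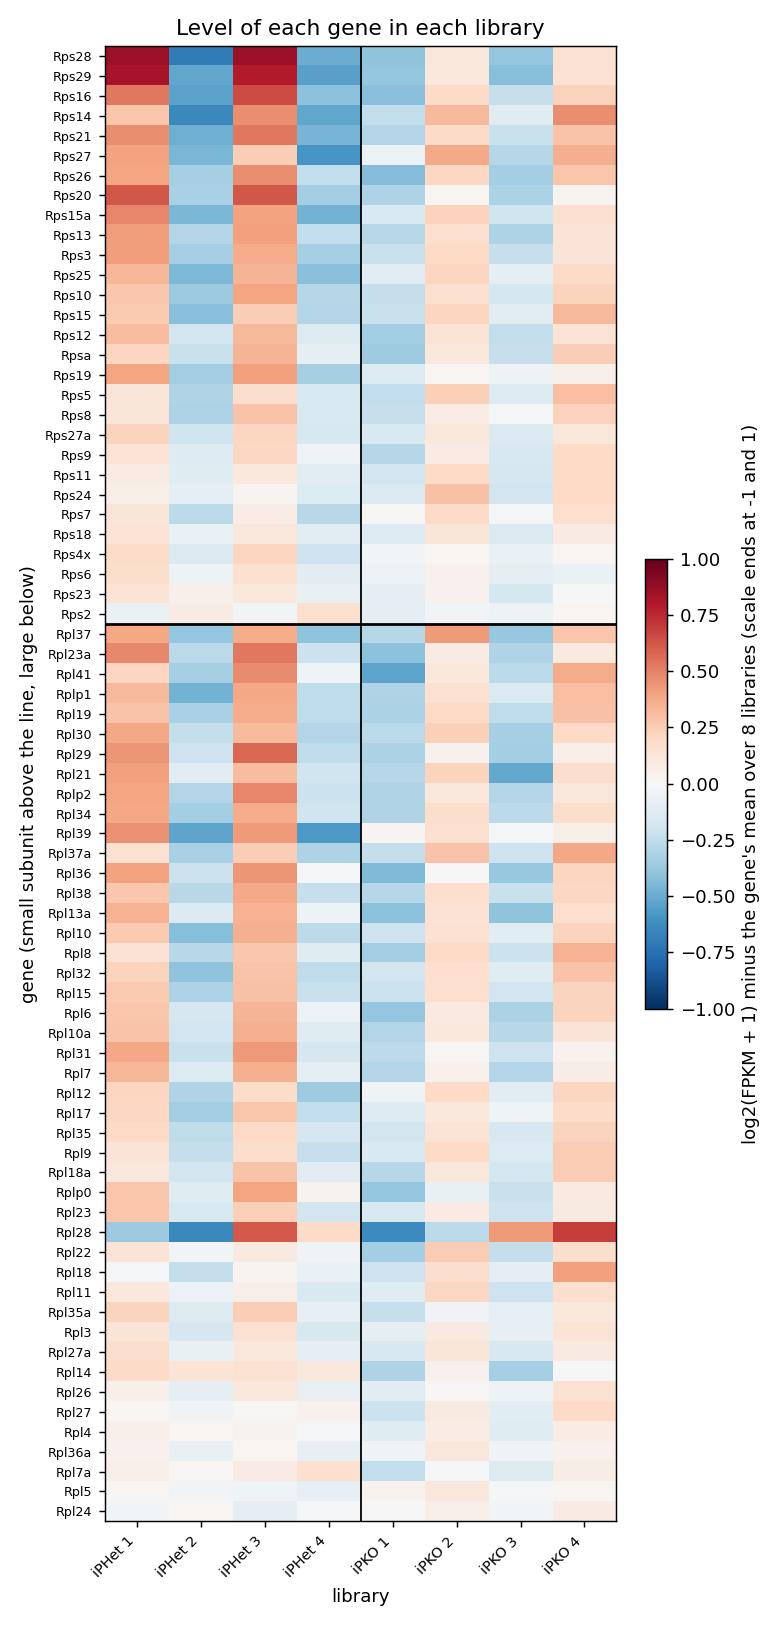
Level of 74 of the 75 members in each library as log2(FPKM + 1) minus the gene's mean over the 8 libraries (red above, blue below, the scale ending at -1 and 1), small subunit above the line. Columns of libraries 1 and 3 are red in iPHet and blue in iPKO for most rows; Rpl28 follows another order, and the rows of Rps2, Rpl5 and the one named Rpl24 are pale.

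Taken apart by library number, the genotype difference had opposite signs. In libraries 1 and 3 the members called were 69 lower and 0 higher in iPKO (limma, 4-group fit), where 29.1% of all tested genes were lower and 19.2% higher, and the median log2 change was -0.47. Under quantile normalization these calls were 38 lower and 3 higher, where 47.2% of all tested genes were called in either direction, and the median was -0.19. In libraries 2 and 4 they were 62 higher, where 21.0% of all tested genes were higher, and 2 lower, Rpl14 and Rps2, where 26.4% were lower, with a median of 0.37. Both lower calls were lost under quantile normalization. That of Rpl14 was also lost under median centring and without iPHet 2, iPHet 4, iPKO 2 or iPKO 4, and that of Rps2 without any 1 library other than iPHet 2. Over all tested genes the medians were -0.05 (odd-numbered) and -0.02 (even-numbered). The test of the difference itself, the genotype difference in even-numbered minus that in odd-numbered libraries, called 70 members higher and 0 lower. It called 15.6% of all tested genes higher and 12.9% lower. The median shift was 0.88 over the members and 0.01 over all tested genes. This split was chosen with earlier results of these data known, each group then holds 2 libraries, and p-values are too small if libraries 1 and 3, or 2 and 4, share a culture. With such pairs averaged, iPKO against iPHet again called 0 members, and 0.0562% of all tested genes.

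Both subunits shifted. In the small subunit 29 of 30 members were called in the test of the shift, with a median of 0.97, and 29 were lower in odd-numbered libraries and 27 higher and 1 lower in even-numbered ones. In the large subunit 41 of 45 were called, with a median of 0.81, and 40 were lower in odd-numbered libraries and 35 higher and 1 lower in even-numbered ones. Whether the subunits differ was not tested. The 5 members not called were Rps2, Rpl5, Rpl7a, Rpl28 and the row named Rpl24.

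**Figure D4:**
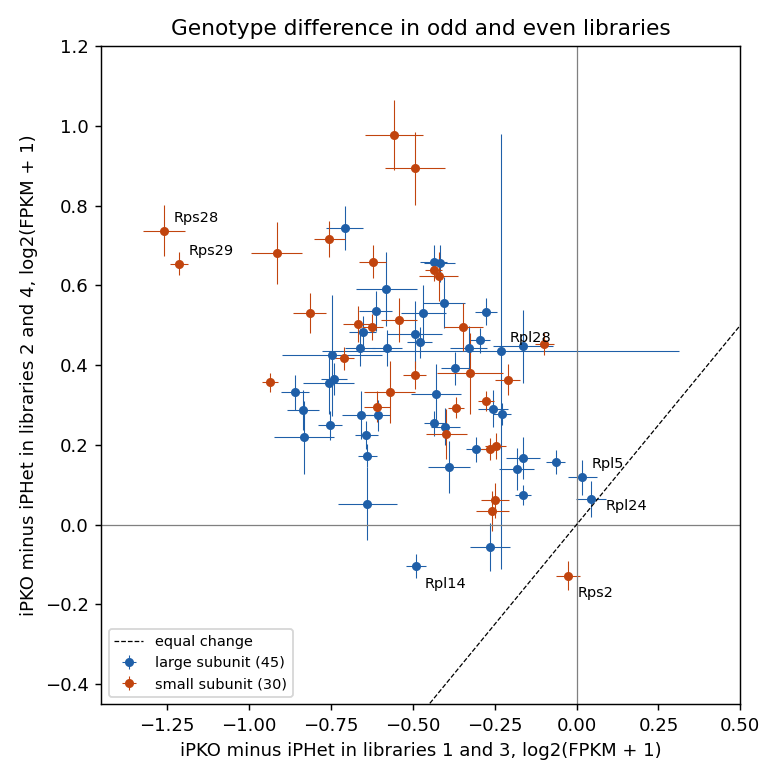
Genotype difference (iPKO minus iPHet, log2 of FPKM + 1) in libraries 1 and 3 on the horizontal axis against that in libraries 2 and 4 on the vertical axis, 1 point per member with standard errors from the 4-group fit. Most points lie in the upper left, below 0 in the odd-numbered and above 0 in the even-numbered libraries, away from the dashed line of equal change.

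The largest shifts were those of Rps28 and Rps29, short proteins of the small subunit. Rps28, part of the small subunit near the mRNA exit, had 455, 153, 456 and 177 FPKM in iPHet 1 to 4 and 189, 271, 191 and 279 FPKM in iPKO 1 to 4. Each iPKO library thus lay between the low and the high pair of iPHet. Its log2 difference was -1.26 in odd-numbered and 0.74 in even-numbered libraries, a shift of 2.00 (SE 0.09, limma adjusted p = 0.000144). Rps29 had 2015, 796, 1979 and 784 FPKM in iPHet 1 to 4 and 872, 1227, 850 and 1259 FPKM in iPKO 1 to 4. Here too the iPKO values fell between those of iPHet, and the shift was 1.87 (SE 0.04, limma adjusted p = 6.51e-06). Rps14, lost from one chromosome copy in a form of myelodysplastic syndrome, had 877, 462, 1002 and 506 FPKM in iPHet and 609, 906, 666 and 999 FPKM in iPKO, a shift of 1.53. Rps20 had 993, 515, 992 and 506 FPKM in iPHet and 521, 652, 516 and 656 FPKM in iPKO, a shift of 1.29. In iPKO its high pair stayed below the high pair of iPHet. Rps27, another zinc-binding protein, had 187, 103, 167 and 93.4 FPKM in iPHet and 136, 184, 116 and 182 FPKM in iPKO, a shift of 1.39.

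Among the other named small-subunit genes, Rps25 and Rps13 were picked by the p of the shift, so their calls follow from the choice. Rps25, which takes part in initiation at internal ribosome entry sites, had a shift of 1.07, from -0.44 in odd-numbered to 0.64 in even-numbered libraries. Rps13 had one of 1.13, from -0.71 to 0.42. Rps19, a gene mutated in Diamond-Blackfan anaemia, had a shift of 0.87. Rps10 had 296, 191, 323 and 201 FPKM in iPHet 1 to 4 and 207, 273, 217 and 287 FPKM in iPKO 1 to 4, a shift of 1.06 (SE 0.08, limma adjusted p = 0.000692). Its libraries therefore split by number within each genotype while the genotypes overlapped. Rpsa, whose protein also serves as a laminin receptor, had a shift of 0.90, and Rps27a one of 0.66. Rps4x, the X-linked form of Rps4, had 0.44, and Rps6, the substrate of S6 kinase, 0.31. The Rps6 call was lost without iPHet 1 (limma adjusted p = 0.0536), without iPHet 3 (0.0515) or without iPKO 3 (0.0568). Under quantile normalization the shift of Rps6 was -0.14 and no longer called, and that of Rps4x was 0.08, also no longer called.

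In the stalk of the large subunit all 3 genes were called in the test of the shift. Rplp1 had 1524, 877, 1596 and 1023 FPKM in iPHet 1 to 4 and 988, 1354, 1099 and 1503 FPKM in iPKO 1 to 4, a shift of 1.17. Rplp2, its partner, had 772, 478, 820 and 504 FPKM in iPHet and 474, 633, 477 and 632 FPKM in iPKO, a shift of 1.11. Rplp0, which anchors them both, had 1313, 998, 1429 and 1114 FPKM in iPHet and 831, 1031, 932 and 1160 FPKM in iPKO, a shift of 0.69. Under quantile normalization the shift of Rplp0 was 0.11 and no longer called (limma adjusted p = 0.477). Its even-numbered libraries differed by 0.05 (SE 0.09), and that value turned to -0.13 under quantile normalization, -0.03 without iPHet 2 and -0.03 without iPKO 4.

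Rpl5 and Rpl11, which form a particle with 5S ribosomal RNA and bind MDM2 when free, are given side by side. Rpl5 had 1674, 1620, 1604 and 1563 FPKM in iPHet 1 to 4 and 1692, 1782, 1627 and 1676 FPKM in iPKO 1 to 4. Its shift of 0.10 (SE 0.06, limma adjusted p = 0.259) was not called, and it turned to -0.06 under quantile normalization. Rpl11 had 604, 539, 587 and 502 FPKM in iPHet and 514, 645, 484 and 628 FPKM in iPKO, a shift of 0.55 that quantile normalization reduced to 0.18 (limma adjusted p = 0.149). With midpoints of the deposited bounds it was 0.50 and not called (limma adjusted p = 0.313). The difference between the 2 genes was not tested. Among other large-subunit genes, Rpl3, close to the peptidyl transferase centre, had a shift of 0.50, Rpl7 0.81, Rpl13a, which also takes part in interferon-linked translational control, 1.00, and Rpl30 1.14. Rpl29 had 1.12, Rpl36 1.05 and Rpl14 0.39. Rpl4 had 0.24, which turned to -0.37 and was called lower under quantile normalization.

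Of the uncalled members, Rps2 had a shift of -0.10 (SE 0.05, limma adjusted p = 0.183), the only one below 0. Rpl7a had 0.21 (SE 0.09, limma adjusted p = 0.119), and the row named Rpl24 had 0.02 (SE 0.06). Rpl28 split in another way, with 366, 302, 722 and 537 FPKM in iPHet 1 to 4 and 302, 390, 633 and 760 FPKM in iPKO 1 to 4. Libraries 3 and 4 lay above libraries 1 and 2 in both genotypes. No other member showed this, and 190 of 12462 tested genes did. Its shift was 0.67 with a wide SE of 0.77. Rpl7a, Rpl28, Rpl12, Rps7, Rps16, Rpl37 and Rpl36a are not among the genes picked by the naming rule and were singled out after their values were seen.

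The shift moved with the length of the coding sequence, inside and outside the family. Over the 74 ribosomal protein genes, Spearman's correlation between coding length (GENCODE vM21) and shift was -0.50. Over 11101 other protein-coding genes it was -0.29. These points share the same 8 libraries and are genes, not replicates, so no p is given. In coding sequences of at most 300 bases the median shift was 1.39 over 9 members and 0.32 over 251 other genes. From 301 to 450 bases it was 0.90 over 27 members and 0.27 over 518 others, and from 451 to 600 bases 0.76 over 18 and 0.16 over 677. From 601 to 900 bases it was 0.84 over 17 members and 0.09 over 1499 others. From 901 to 1500 bases it was 0.50 over 3 members and 0.02 over 3135 others, and beyond 3000 bases, where no member lies, -0.14 over 1504 genes. At each length with members their median lay above that of the others. The part of transcript length in the shift was not tested.

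**Figure D5:**
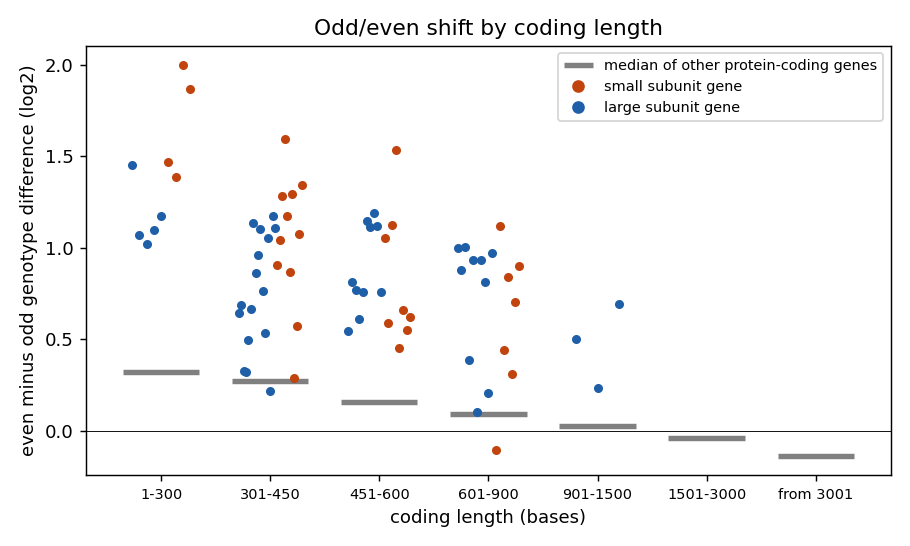
Genotype difference in even-numbered minus that in odd-numbered libraries (log2) for each ribosomal protein gene, grouped by coding length in bases (orange small, blue large subunit), with grey bars at the median of the other protein-coding genes of that length. The grey bars fall with length, and most members lie above the bar of their length.

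With a pyrimidine run at the listed start, the 21 members had a median shift of 0.76, ranging from 0.21 in Rpl7a to 1.39. The 33 without one had 0.87, ranging from -0.10 in Rps2 to 2.00 in Rps28. The genes whose start sequences are printed above were chosen by their shift, apart from Rps10. Of the 4 least shifted, Rpl7a had the run of 17 bases inside the window, Rps2 one of 6, and Rpl5 and Rpl36a runs of 3.

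Ribosomal proteins whose names fall outside the pattern, and paralogs, were taken as a list of 15 symbols, of which 10 were tested. Their median log2 change, iPKO against iPHet, was -0.03. The genotype comparison called 1 of them higher and none lower, where 6.30% and 9.53% of all tested genes were. It was Rpl10l, the autosomal paralog of X-linked Rpl10, with 3.86, 4.16, 4.18 and 5.57 FPKM in iPHet 1 to 4 and 8.23, 9.73, 7.94 and 9.42 FPKM in iPKO 1 to 4. The genotypes did not overlap, and the log2 difference was 0.86 (SE 0.11, limma adjusted p = 0.00279). The shift of Rpl10l was 0.00 (SE 0.16). In the test of the shift 8 of the 10 were called higher and 0 lower, beside 15.6% and 12.9% of all tested genes, with a median of 0.57. Rps27l, a paralog of Rps27, had the largest, 1.96 (SE 0.07), Fau, the fusion that yields Rps30, had 1.17, and Rps3a1 had 0.18. The median over all tested genes was 0.01.

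Translation factors and other TOP transcripts were tested as 25 genes. In iPKO against iPHet, where 6.30% of all tested genes were higher and 9.53% lower, 1 of the 25 was called higher and 0 lower. It was the helicase Eif4a2 (log2 difference 0.38, SE 0.07, limma adjusted p = 0.00895). In the test of the shift 14 were called higher and 1 lower, beside the same 15.6% and 12.9%, with a median of 0.31. Chosen after their values were seen, as were Rps27l and Fau above, Eef1a1 and 3 more are given as examples. Values were 0.20 for Eef1a1, the elongation factor that brings aminoacyl-tRNA, 0.14 for Eef2, which drives translocation, 0.63 for Tpt1 and 0.74 for Eef1b2. Npm1, the abundant nucleolar chaperone, had a genotype difference of -0.32 (SE 0.15, limma adjusted p = 0.184). Ribosome biogenesis factors numbered 54, of which iPKO was higher in 1 and lower in 2, where 6.30% and 9.53% of all tested genes were, with a median log2 change of -0.10. Noc4l (-0.56, SE 0.08, limma adjusted p = 0.00417) and Imp4 (-0.38, SE 0.07, 0.00875), both of small-subunit processing, were lower, and Nle1 (0.75, SE 0.15, 0.0121), of large-subunit maturation, was higher. Their shift was called higher in 20 and lower in 2, against 15.6% and 12.9% of all tested genes, with a median of 0.16.

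Mitochondrial ribosomal proteins, which are nuclear-encoded and form a separate ribosome, were also tested as 75 genes. Their iPKO against iPHet calls were 12 lower and 0 higher, at a median log2 change of -0.16, beside 0 of the 75 cytosolic members and 9.53% lower and 6.30% higher over all tested genes. The 4 with the smallest p were Mrps25 (-0.46), Mrps21 (-0.72), Mrpl13 (-0.38) and Mrps24 (-0.69). Mrps21 had 12.3, 9.95, 15.1 and 13.3 FPKM in iPHet 1 to 4 and 7.64, 6.57, 8.53 and 6.22 FPKM in iPKO 1 to 4, without overlap. The shift was called higher in 44 and lower in 0, again against 15.6% and 12.9%, with a median of 0.40. The difference between the cytosolic and the mitochondrial genes was not tested.

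Many ribosomal protein genes have processed copies in the genome, and how reads that match several copies were assigned is not given in the sources used here. The files held 251 rows named as their pseudogenes, of which 149 were above 0 in some library and 28 reached a mean of 1 FPKM. Together these rows, without copies under other names, summed to 430 to 507 FPKM per library, against 34696 to 48578 FPKM for the members. The level of a member with near-identical copies is uncertain for this reason. The deposited tables also give a lower and an upper bound for each value. In each library 39 to 43 of the 75 members had an FPKM outside their own bounds, 52.0% to 57.3%, against 20.3% to 28.2% of tested genes. The FPKM of Rpl36 reached 2.74 times the midpoint of its bounds. For Rps28 the ratio ran from 1.00 to 2.23 across libraries and for Rpl12 from 1.03 to 1.65, so their differences depend on which of the deposited values is used. With midpoints 66 members were called in the test of the shift, 65 of them among the 70, and Rps28 was not (shift 1.85, limma adjusted p = 0.0785). The share of all tested genes called for the shift with midpoints is not given here, so the 66 cannot be set against it.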

How the data were processed

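Libraries were made with the Illumina TruSeq RNA kit and sequenced as paired reads of 100 bases, per the labels' protocols. Trimmomatic and the build mm10 are named in the submitters' processing notes; aligner and quantifier: not given in the sources used here. The authors deposited 1 table per library with an FPKM value, its 2 bounds and a status for 39013 rows (38991 identifiers, 19 at more than 1 locus, whose FPKM were summed), per the file headers. FPKM are normalized for length and depth, so no count test applies.

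Levels were tested as log2(FPKM + 1), a scale that understates changes of low genes. limma 3.58.1 in R 4.3.3, with an intensity trend, was fitted to the 12462 genes whose mean reached 1 FPKM in iPHet or in iPKO, with Benjamini-Hochberg adjustment and a threshold of 0.05. A second fit had 4 groups, genotype by odd or even library number, with 2 libraries each. On simulated data with 200 genes changed by a log2 of 1 among 12462, the genotype fit called 95.5% of them, and the test of the odd/even shift 80.5%. The simulated spread was that within the 4 groups, so the simulated libraries held no odd/even split. In the real genotype fit that split counts as spread, so 95.5% overstates what it would call among genes that carry the split. Pairing by the same number in both genotypes is not given by the labels, and the data do not single it out. For libraries of the same number, deviations from the group means correlated at 0.104, 0.162, 0.204 and 0.107 over all tested genes. They also correlated at 0.077 (iPHet 1 with iPKO 3), 0.124 (2 with 4), 0.0862 (3 with 1) and 0.0905 (4 with 2). Over the members the same-number correlations were -0.02, -0.23, -0.15 and -0.04. The highest were 0.612 (iPHet 1 with iPKO 2), 0.571 (4 with 3), 0.570 (2 with 1) and 0.546 (3 with 4). Files without counts allow no test of whether libraries 1 and 3, or 2 and 4, are repeats of 1 sample, and they were kept apart.

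Members and gene lists were chosen with earlier results of these data known. Named are members called in the main comparison, the 4 per subunit with the largest change, the 3 highest and 2 lowest levels per subunit, 13 fixed genes, up to 4 per subunit by the p of the shift, and up to 4 per list by the p of the genotype comparison. The values of 1 gene that this rule picks are not reported here. Coding lengths and gene types came from GENCODE vM21, in which 96.2% of identifiers were found, and start sequences from RefSeq. Alternatives were a pseudocount of 0.1, no filter or one of 5 FPKM, median centring, quantile normalization, a replicate block, an odd/even term, each library left out, averaged pairs and protein-coding genes; bounds' midpoints and leaving out the row named Rpl24 were added after seeing the data.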

Additional observations from a re-analysis of the deposited data

Results flagged for a closer look

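The naming rule picked 28 members. Of these, 25 had a genotype difference that differed between even-numbered and odd-numbered libraries by the test of the difference itself (limma, adjusted p under 0.05). That test called 15.6% of all tested genes higher and 12.9% lower. Rps29, Rps20, Rps25, Rps13, Rpl7, Rpl13a, Rplp2 and Rpl30 were picked by the p of this test, some by other criteria too. Their calls therefore follow from the choice. In the small subunit the shift, even minus odd on the log2 scale, was 2.00 for Rps28, 1.87 for Rps29, 1.53 for Rps14, 1.39 for Rps27, 1.29 for Rps20, 1.13 for Rps13, 1.07 for Rps25 and 1.06 for Rps10. It was 0.90 for Rpsa, 0.87 for Rps19, 0.66 for Rps27a, 0.44 for Rps4x and 0.31 for Rps6. In the large subunit it was 1.17 for Rplp1, 1.14 for Rpl30, 1.12 for Rpl29, 1.11 for Rplp2, 1.05 for Rpl36 and 1.00 for Rpl13a. It was 0.81 for Rpl7, 0.69 for Rplp0, 0.55 for Rpl11, 0.50 for Rpl3, 0.39 for Rpl14 and 0.24 for Rpl4. Every one of these was above 0, and under quantile normalization those of Rps6 and Rpl4 were below it. That normalization also ended the calls of Rplp0 (0.11), Rps4x (0.08) and Rpl11 (0.18), and midpoints of the deposited bounds ended those of Rps28 (1.85) and Rpl11 (0.50). No library was flagged as standing apart from the other 3 of its genotype in any of these genes. In most of these genes the libraries of a genotype split into close pairs by number. A single library can then hardly stand apart, so this check says little about single libraries.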

How the results depend on the processing

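The count of members called in iPKO against iPHet was 0 in the reported fit and 0 with each library left out. It was 1 under quantile normalization (Rps7, higher; 15.1% of all tested genes called), 1 with an odd/even term (Rpl14, lower; 37.9%) and 2 with midpoints of the deposited bounds (15.9%). With the replicate block, which pairs libraries by number, it was 0, and the block changed no member's call, while the share of all tested genes called was 27.5% in place of 15.8%. Leaving out 1 library leaves 1 of the 4 groups of the second fit with a single library, so counts of its calls are not given. Quantile normalization moved the count in odd-numbered libraries from 69, all lower, to 41, of which 38 were lower and 3 higher. In that contrast it called 47.2% of all tested genes in either direction. The same normalization moved the count for the shift from 70 to 60 (58 higher, 2 lower). The share of all tested genes for that count is not given here. Quantile normalization moved the median in odd-numbered libraries to -0.19 and the median shift to 0.55. The cause was not tested. Single values turned sign as follows. Under quantile normalization the shift was -0.37 for Rpl4, -0.063 for Rpl5 and -0.14 for Rps6, and the even-numbered difference of Rplp0 was -0.13, with a range of -0.032 (without iPKO 4) to 0.14 over fits that leave out 1 library. The shift of the row named Rpl24 was -0.0066 under median centring and -0.013 (without iPHet 1) to 0.053 with 1 library left out. The genotype difference of Rps28 was 0.24 with midpoints. The files give no counts, so the counting error of single values is unknown.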
